A study of Mus musculus with 9 samples.

Results

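Aminoacyl-tRNA synthetases are the enzymes that join each amino acid to its tRNA. A list of 38 genes was followed, made of cytosolic synthetases, mitochondrial synthetases (named with the suffix 2) and the scaffold proteins Aimp1 and Aimp2. Probe sets were taken where the platform annotation named exactly 1 gene, and of several probe sets for a gene the brightest over all arrays stood for it. This gave 37 members (19 of 20 cytosolic synthetases, all 16 mitochondrial synthetases and both scaffold proteins) among 18193 genes. Mars is listed in the annotation as Mars1 and was matched through its RefSeq synonym. Dars was not analysed here.

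The samples came from marrow of unmanipulated C57BL/6 mice (an inbred laboratory strain), male or female and between 4 and 10 weeks old, sorted into 3 populations with 3 Affymetrix expression arrays for each. Mac1- myeloblasts were c-kit+ and Gr1+ with low or no Mac1, Mac1+ myeloblasts were c-kit+, Gr1+ and Mac1+, and neutrophils were Gr1+ and Mac1+ without c-kit. c-kit is the stem cell factor receptor on progenitors, Gr1 an antigen of the granulocyte lineage, and Mac1 an adhesion receptor gained as myeloid cells mature. No gene was altered and no agent was given in any group, and the labels do not say whether replicates came from separate animals, so the p-values speak for the spread among these arrays, part or all of which may be technical.

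Cytosolic synthetases charge the tRNAs that serve the ribosomes of the cytoplasm, and a separate set, encoded in the nucleus and imported, charges the tRNAs of mitochondria. Kars and Gars serve both compartments, and Eprs joins the glutamate and proline enzymes in a single protein. Several cytosolic enzymes are held in the multi-synthetase complex by Aimp1, Aimp2 and Eef1e1. When charged tRNA runs short, the kinase GCN2 is activated and the transcription factor ATF4 accumulates, and genes for amino acid synthesis, amino acid transport and several synthetases are known targets of this pathway. Myeloblasts divide and build granule proteins, whereas mature neutrophils no longer divide.

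To show which members carry the letters that ATF4 and its partners are known to bind, promoters were searched for the amino acid response element, spelled TGATGNAAN, and for the E-box CACGTG, which Myc and Max bind. Both strands were searched, no match of one motif overlapped a match of the other, and each promoter ran from 250 bases before the annotated start to 50 bases after it (RefSeq, GRCm38.p6). Of the measured members 28 had a promoter in the table, with 30 promoters in all. The response element was found in 5 members, Aars, Gars, Iars, Tars and Yars, all of them cytosolic: 5 of 12 cytosolic members with a promoter and 0 of 14 mitochondrial ones. This was 16.7% of the members' promoters and 3.95% of all 32851 promoters. The E-box was found in 5 members, Aars, Farsb, Iars, Tars and Ears2, which was also 16.7% of the members' promoters, and in 7.15% of all promoters. A match describes the letters in this window and is not a binding site. The stretch from 150 bases before the start to 30 bases after it is printed for the 5 members with the response element, 5′ to 3′ in the direction of the gene, with the matches to either motif in capitals. They lie at chr8:111033692-111033871, plus strand, chr6:55037851-55038030, plus strand, chr13:49681980-49682159, plus strand, chr15:11399629-11399808, minus strand and chr4:129189753-129189932, plus strand, in the order Aars, Gars, Iars, Tars, Yars.
Aars: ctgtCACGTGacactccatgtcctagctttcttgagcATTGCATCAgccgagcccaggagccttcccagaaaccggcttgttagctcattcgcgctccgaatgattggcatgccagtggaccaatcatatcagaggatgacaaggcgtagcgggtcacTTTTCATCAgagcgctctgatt
Gars: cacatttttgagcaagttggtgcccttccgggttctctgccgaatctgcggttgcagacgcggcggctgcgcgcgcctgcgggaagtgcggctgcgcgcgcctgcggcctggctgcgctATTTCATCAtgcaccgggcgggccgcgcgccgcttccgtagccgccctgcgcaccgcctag
Iars: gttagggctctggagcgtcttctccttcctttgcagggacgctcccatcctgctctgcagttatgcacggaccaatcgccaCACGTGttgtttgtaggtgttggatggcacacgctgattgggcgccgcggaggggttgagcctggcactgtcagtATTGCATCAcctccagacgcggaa
Tars: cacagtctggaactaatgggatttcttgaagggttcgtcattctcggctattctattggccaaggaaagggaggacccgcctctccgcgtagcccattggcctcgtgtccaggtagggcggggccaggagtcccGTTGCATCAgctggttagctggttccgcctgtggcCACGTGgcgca
Yars: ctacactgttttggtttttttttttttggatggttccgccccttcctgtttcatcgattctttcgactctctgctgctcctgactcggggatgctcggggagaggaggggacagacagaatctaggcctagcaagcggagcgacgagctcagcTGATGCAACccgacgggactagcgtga
Counting the annotated start as base 1, with no base 0, the element of Aars begins at bases -113 and 9, that of Gars at -31, that of Iars at 7, that of Tars at -16 and that of Yars at 4. Yars alone among them carries it on the strand printed, as TGATGCAAC. The other matches read ATTGCATCA and TTTTCATCA in Aars, ATTTCATCA in Gars, ATTGCATCA in Iars and GTTGCATCA in Tars. The E-boxes of Aars, Iars and Tars begin at -146, -69 and 20.

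The sort markers followed the labels. Kit, which encodes c-kit, read between 2998 and 3470 on the 6 arrays of c-kit+ cells and 95, 295 and 331 on the neutrophil arrays. Itgam, which encodes a chain of Mac1, read between 69 and 74 in Mac1- cells, between 695 and 920 in Mac1+ cells and between 2027 and 3675 in neutrophils. Values are deposited intensities on a linear scale, whose mean per array lay between 549.4 and 727.4 and whose median lay between 39.1 and 61.8, and their number of 3 arrays a group limits the precision. The ratio of 3′ to 5′ control probe sets, a sign of RNA integrity, lay for actin between 2.17 and 2.49 in Mac1- cells, between 1.66 and 2.17 in Mac1+ cells and between 1.52 and 1.84 in neutrophils, and for Gapdh between 1.92 and 2.47 on all arrays but neutrophil array 1, at 2.70. Neutrophil array 1 stood apart: its estimated array weight was 0.068, and of the 3 neutrophil arrays it was the lowest for 25 of 37 members (67.6%), against 36.6% of all genes. Summed intensities of 8 measured monocyte and macrophage markers lay between 38584 and 41437 in Mac1- cells (Csf1r between 8166 and 8797, Irf8 between 12624 and 13516), between 3704 and 4735 in Mac1+ cells, where Cx3cr1 stayed under 100, and between 15370 and 22116 in neutrophils, where Csf1r read 12949, 7976 and 7112 (between 485 and 715 in Mac1+ cells) and Cx3cr1 also stayed under 100. Stem and progenitor markers (8 of 8 measured) summed to between 17951 and 20045 in Mac1- cells, between 12126 and 14053 in Mac1+ cells and between 1456 and 2733 in neutrophils. The sum of 6 B cell markers lay between 3443 and 13361 in c-kit+ cells, mostly from Ebf1, and between 1059 and 2679 in neutrophils. In neutrophils Ebf1 read 2112, 985 and 836 and Cd79a 187, 69 and 21. Only Cd79b and Pax5 of the 6 stayed under 100 on all neutrophil arrays, and Pax5 did so in every group. The sum of 4 T and NK cell markers lay between 7650 and 11947 in c-kit+ cells, mostly from Nkg7, and between 427 and 804 in neutrophils, where Cd3d read 403, 484 and 357 (between 27 and 51 in c-kit+ cells), with Cd3e under 100 everywhere. Erythroid markers summed to at most 447 on any array with Hba-a1, Klf1 and Alas2 under 100 everywhere, basophil, mast cell and eosinophil markers to between 1175 and 1550 in c-kit+ cells and at most 207 in neutrophils, dendritic cell markers to at most 2293 and megakaryocyte markers to at most 752. The 11 measured mature neutrophil markers summed to between 112496 and 136010 in neutrophils, between 86970 and 101371 in Mac1+ cells and between 16486 and 20507 in Mac1- cells. Of these 11, 6 were called higher in neutrophils than in Mac1+ cells and 0 lower. The other 5 had differences below 0 and were not called. Among all genes 19.7% were called higher in this comparison and 28.4% lower. Primary granule markers summed to between 1749 and 15035 in neutrophils, down from between 72141 and 89420 in the c-kit+ cells.

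Synthetase transcripts were higher in both myeloblast populations than in neutrophils. Between Mac1- cells and neutrophils 36 of 37 members fell and 1, Wars, was called higher on its brightest probe set, where 30.0% of all genes were called lower and 22.6% higher. The median difference of the members was -2.52 log2 units, against 0.05 over all genes, and 26 of 37 members were lower by over 2 log2 units, as were 14.6% of all genes. Most of the fall lay between Mac1+ cells and neutrophils. The difference between Mac1+ and Mac1- cells was set against that between neutrophils and Mac1- cells. Among cytosolic enzymes that fell, its median share was 9.2% (range -16.2% to 25.8%), and among mitochondrial ones 14.2% (range -9.1% to 40.5%). Only 3 of 37 members were called between the myeloblast groups. Whether cells pass from 1 group to the next was not tested. Differences are on the scale of log2(intensity + 16), which understates the change of dim genes, and are given ± standard error. A gene was called at a limma adjusted p under 0.05 (Benjamini-Hochberg over all 18193 genes). In sorted bulk samples, fewer cells that express a gene and less of its RNA per cell cannot be told apart.

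**Figure D1:**
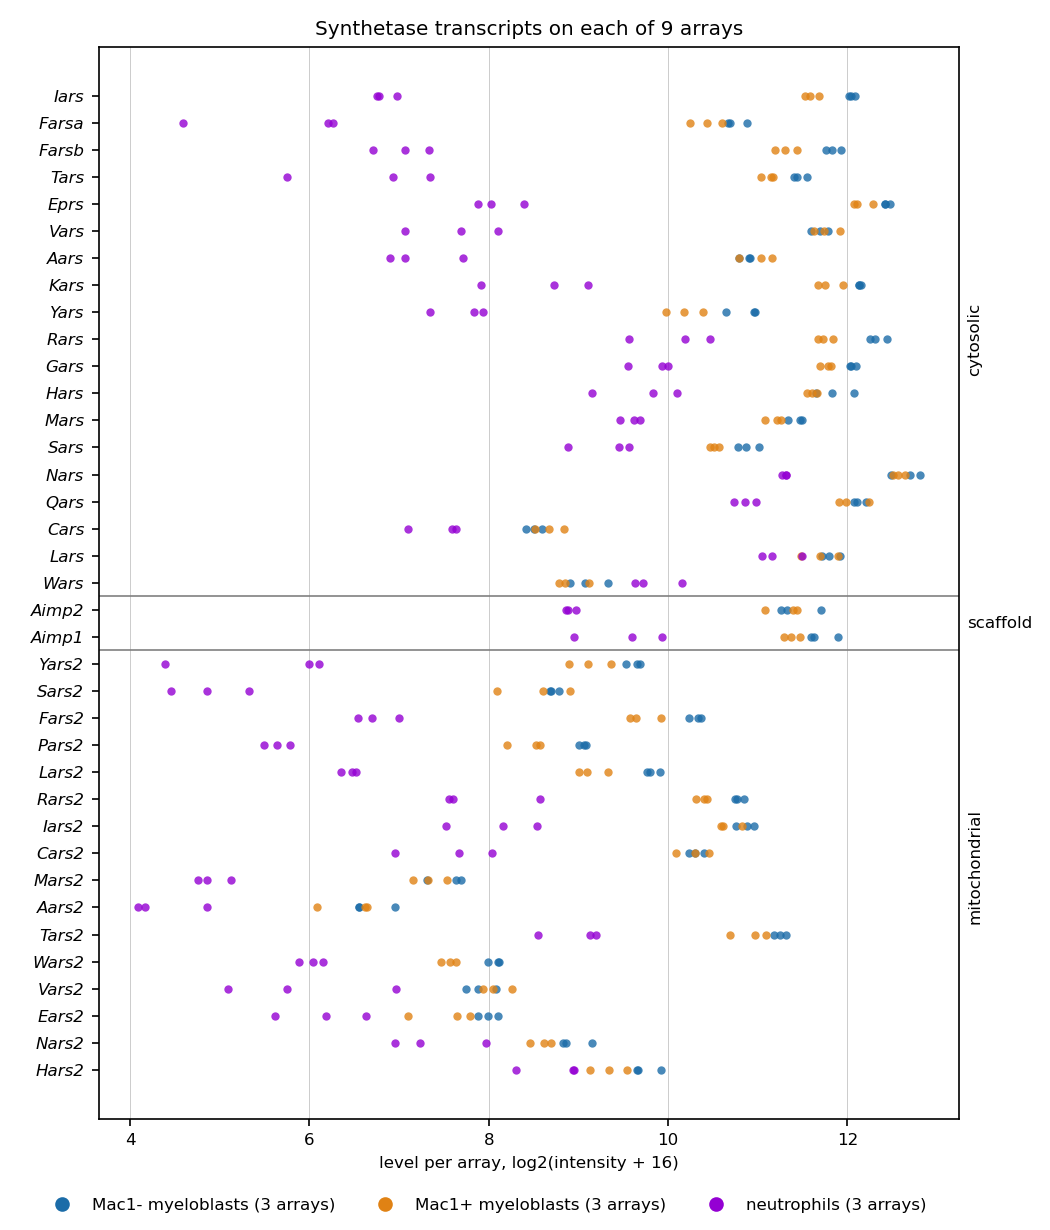
Level of each member on each array as log2(intensity + 16), with cytosolic, scaffold and mitochondrial genes in blocks, each ordered by its difference between neutrophils and Mac1- cells. Neutrophil arrays lie left of both myeloblast groups for 35 of 37 members, overlap the Mac1+ arrays for Lars, and lie right of them for Wars; levels of different genes rest on different probes and are not comparable.

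On the offset scale the largest falls were in cytosolic enzymes, starting with Iars, the isoleucine enzyme. By the ratio of mean intensities in neutrophils to those in Mac1- cells, the mitochondrial Sars2 (0.035) and Yars2 (0.046) lay below the cytosolic Eprs (0.047). Iars read 4182, 4330 and 4125 in Mac1- cells, 2944, 3051 and 3271 in Mac1+ cells, and 110, 92 and 94 in neutrophils. The neutrophil arrays were far below and close to each other, and Mac1+ arrays lay below Mac1- arrays without overlap. Iars fell by 5.21 ± 0.13 log2 units from Mac1- cells to neutrophils (37.0-fold on the offset scale, limma adjusted p = 1.91e-08) and by 4.76 ± 0.13 from Mac1+ cells (adjusted p = 4.01e-08). A second probe set of Iars, dimmer by its mean over the arrays, fell by 5.26.

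The 2 chains of the phenylalanine enzyme fell together. Farsa, its alpha chain, read 1870, 1606 and 1634 in Mac1- cells, 1195, 1364 and 1532 in Mac1+ cells, and 8, 61 and 58 in neutrophils. Farsb, its beta chain, read 3615, 3875 and 3449, then 2323, 2761 and 2515, and then 145, 118 and 89. No array of one group overlapped another group for either gene, and for Farsa neutrophil array 1 was far below the other 2. Farsa fell by 5.07 ± 0.41 to neutrophils from Mac1- cells and by 4.75 ± 0.41 from Mac1+ cells (limma adjusted p = 5.43e-06 and 1.06e-05). Farsb fell by 4.80 ± 0.18 and 4.28 ± 0.18 (limma adjusted p = 6.23e-08 and 1.65e-07). Without any 1 array, the fall of Farsa from Mac1- cells stayed between -5.36 and -4.51. Another probe set of Farsa averaged 54.8 in Mac1- cells and 299.6 in neutrophils and was not called (difference 1.61, limma adjusted p = 0.0885). Its remaining ones, dimmer still, differed by -1.10 and -0.32 (limma adjusted p = 0.00228 and 0.442).

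Tars, the threonine enzyme, read 2755, 2972 and 2689 in Mac1- cells, 2087, 2281 and 2245 in Mac1+ cells, and 38, 146 and 106 in neutrophils. The groups did not overlap, and neutrophil array 1 was again the lowest. Tars fell by 4.79 ± 0.34 from Mac1- cells and 4.44 ± 0.34 from Mac1+ cells (limma adjusted p = 2.71e-06 and 5.69e-06).

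Eprs, the joined glutamate and proline enzyme, read 5451, 5658 and 5465 in Mac1- cells, 4299, 4398 and 4992 in Mac1+ cells, and 244, 321 and 219 in neutrophils. Its groups did not overlap, and it fell by 4.34 ± 0.16 from Mac1- cells and 4.06 ± 0.16 from Mac1+ cells (limma adjusted p = 6.62e-08 and 1.45e-07). Vars, the valine enzyme, read 3507, 3308 and 3068, then 3151, 3403 and 3841, and then 118, 258 and 191. Both myeloblast groups overlapped for Vars, and the neutrophil arrays were all below them. Vars fell by 4.14 ± 0.24 from Mac1+ cells and 4.07 ± 0.24 from Mac1- cells (limma adjusted p = 1.03e-06 and 8.49e-07).

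The other cytosolic members covered a wide range. From Mac1- cells to neutrophils Aars, which charges alanine, fell by 3.64, Kars (lysine) by 3.55, Yars (tyrosine) by 3.16, Rars (arginine) by 2.26, Gars (glycine) by 2.23 and Hars (histidine) by 2.16. Smaller differences were those of Mars (methionine, -1.84), Sars (serine, -1.59), Nars (asparagine, -1.36), Qars (glutamine, -1.27) and Cars (cysteine, -1.06). Each of these 11 was called lower against both myeloblast groups. Among all genes 30.0% were called lower against Mac1- cells and 28.4% against Mac1+ cells. Cars rests on its bright probe set, since its other one lay at a mean intensity of 12.8 and differed by 0.05. With the mean of both, the difference was -0.51 from Mac1- cells and -0.69 from Mac1+ cells (limma adjusted p = 0.136 and 0.0572).

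Lars, the leucine enzyme, had the smallest difference between Mac1- cells and neutrophils. It read 3845, 3547 and 3362 in Mac1- cells, 2835, 3294 and 3803 in Mac1+ cells, and 2861, 2264 and 2096 in neutrophils. Neutrophil array 1 lay within the range of the Mac1+ arrays. The difference between neutrophils and Mac1- cells was -0.58 ± 0.17 (1.50-fold, limma adjusted p = 0.0194), and that between neutrophils and Mac1+ cells, -0.46 ± 0.17, missed the threshold (adjusted p = 0.0555). The latter passed without neutrophil array 1 (-0.59, adjusted p = 0.0089) and without Mac1+ array 1 (-0.57, adjusted p = 0.0441). The former missed it without Mac1- array 1 or 2 or neutrophil array 2 or 3 (adjusted p between 0.0535 and 0.0686), and with arrays centred on their medians it was -0.11 (adjusted p = 0.496).

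Wars, the tryptophan enzyme, whose gene interferon is known to induce, gave opposite directions on different probe sets. On the brightest, 1415694_at, it read 464, 627 and 521 in Mac1- cells, 540, 426 and 446 in Mac1+ cells, and 1124, 828 and 779 in neutrophils. All neutrophil arrays were above all myeloblast arrays, by 0.92 ± 0.19 log2 units over Mac1+ cells and 0.74 ± 0.19 over Mac1- cells (limma adjusted p = 0.00347 and 0.0102). Its mean over all arrays was 639.3, against 619.7 for 1434813_x_at. In Mac1- cells these means were 537.3 and 930.7, and in Mac1+ cells 470.4 and 734.9. It was thus the brightest only through the neutrophil arrays, and the choice of probe set is not independent of this difference. The other 3 probe sets were lower in neutrophils. Probe set 1434813_x_at read 933, 1051 and 808, then 654, 716 and 835, and then 80, 273 and 228. Probe set 1437832_x_at read 554, 642 and 485, then 382, 399 and 486, and then 62, 135 and 121, and 1425106_a_at read 189, 186 and 145, then 129, 149 and 167, and then 33, 55 and 52. In a fit of every probe set these 3 fell by 2.32, 2.29 and 1.60 from Mac1- cells (limma adjusted p = 0.000569, 5.83e-05 and 0.000104). The mean of the 4 probe sets was lower in neutrophils, by -1.37 against Mac1- cells and -1.09 against Mac1+ cells (adjusted p = 0.000189 and 0.00101). The direction of Wars therefore turns with the probe set, and the suffix x marks probes that can match further transcripts. Which transcript each probe set reads was not tested.

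**Figure D2:**
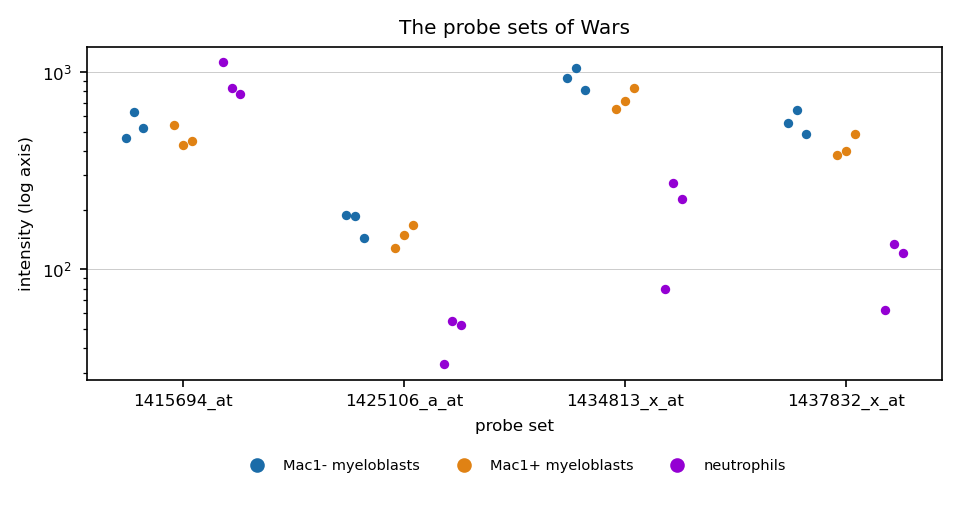
Intensity on a log axis of the 4 probe sets of Wars on each of 9 arrays, coloured by population. Neutrophil arrays are the highest on 1415694_at (779 to 1124) and the lowest on the other 3.

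All 16 mitochondrial synthetases fell in neutrophils against both myeloblast groups, where 30.0% of all genes (against Mac1- cells) and 28.4% (against Mac1+ cells) were called lower. Their median difference was -2.70 from Mac1- cells and -2.45 from Mac1+ cells, and the medians of the 19 cytosolic members were -2.26 and -1.94. Yars2, the mitochondrial tyrosine enzyme, had the lowest difference from Mac1- cells on the offset scale, while by the ratio of mean intensities Sars2 was lower (0.035 against 0.046). It read 790, 806 and 726 in Mac1- cells, 537, 645 and 461 in Mac1+ cells, and 5, 48 and 53 in neutrophils. The groups did not overlap, and neutrophil array 1 was far below the other 2. Yars2 fell by 4.11 ± 0.40 from Mac1- cells and 3.61 ± 0.40 from Mac1+ cells (limma adjusted p = 2.06e-05 and 6.04e-05). With any 1 array left out its difference from Mac1- cells stayed between -4.41 and -3.565.

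Of the other mitochondrial members, Sars2 (serine) fell by 3.85 from Mac1- cells, Fars2 (phenylalanine) by 3.57, Pars2 (proline) by 3.42 and Lars2 (leucine) by 3.37. Rars2 (arginine), Iars2 (isoleucine), Cars2 (cysteine), Mars2 (methionine), Aars2 (alanine), Tars2 (threonine) and Wars2 (tryptophan) differed by between -2.87 for Rars2 and -2.05 for Wars2. Vars2 (valine), Ears2 (glutamate) and Nars2 (asparagine) differed by -1.96, -1.86 and -1.56. Several of these were near the bottom of the scale in neutrophils, where the offset limits the difference: Aars2 read 1, 2 and 13 there, Sars2 13, 6 and 24, and Mars2 11, 19 and 13. Ears2 has 3 dimmer probe sets, and with the mean of the 4 its difference from Mac1- cells was -0.58 (adjusted p = 0.0593).

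Hars2, the mitochondrial histidine enzyme, changed least of the mitochondrial members. It read 950, 798 and 790 in Mac1- cells, 543, 631 and 728 in Mac1+ cells, and 300, 475 and 478 in neutrophils. The 3 groups did not overlap. Hars2 fell by 1.02 ± 0.21 from Mac1- cells (limma adjusted p = 0.00283) and by 0.60 ± 0.21 from Mac1+ cells (adjusted p = 0.0408). The second difference missed the threshold without neutrophil array 1 (-0.39, adjusted p = 0.0593) and without Mac1- array 1, 2 or 3 or Mac1+ array 2 or 3 (adjusted p up to 0.133), and with centred arrays both did. The difference from Mac1+ cells also missed the threshold after quantile normalization (-0.29, adjusted p = 0.305), with the mean of both probe sets (-0.33, adjusted p = 0.088), with an offset of 1 (adjusted p = 0.0563), in a fit of only the 2 groups (adjusted p = 0.0903) and with the replicate block (adjusted p = 0.058). A dimmer probe set of Hars2 differed by -0.22 from Mac1- cells and was not called (limma adjusted p = 0.372).

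Enzymes for the same amino acid in the 2 compartments were set side by side in 17 pairs, with Farsa and Farsb both beside Fars2, and Eprs beside Ears2 and Pars2. The cytosolic enzyme had the lower difference between neutrophils and Mac1- cells in 9 of 17 pairs. The count was 10 with Wars read from 1434813_x_at or 1437832_x_at, and 8 by the ratio of mean intensities, which needs no offset and turned Aars and Aars2 (ratios of 0.075 and 0.058). Iars fell by 5.21 and Iars2 by 2.79, Tars by 4.79 and Tars2 by 2.29, and Eprs by 4.34 and Ears2 by 1.86. The order was turned in the other 8 pairs: for leucine, where Lars differed by -0.58 and Lars2 by -3.37, for serine (Sars -1.59, Sars2 -3.85), for cysteine (Cars -1.06, Cars2 -2.76), for tyrosine (Yars -3.16, Yars2 -4.11), for methionine (Mars -1.84, Mars2 -2.64), for arginine (Rars -2.26, Rars2 -2.87), for asparagine (Nars -1.36, Nars2 -1.56) and, on the brightest probe set of Wars, for tryptophan (Wars 0.74, Wars2 -2.05). The difference within a pair was not tested, and it rests on different probes.

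**Figure D3:**
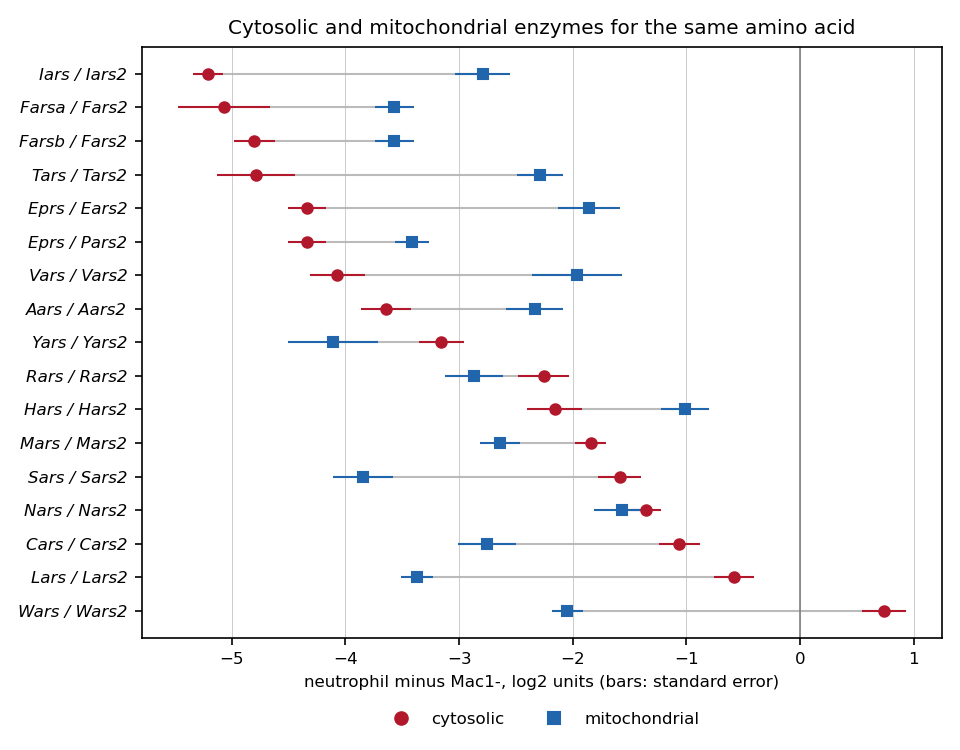
Difference between neutrophils and Mac1- cells (log2 units, bars are standard errors) of the cytosolic (circle) and the mitochondrial (square) enzyme for the same amino acid in 17 pairs, where Farsa and Farsb share Fars2 and Eprs appears beside Ears2 and Pars2. Of these 9 have the circle left of the square, and Wars, drawn for its brightest probe set, is the only circle above 0. The count is 10 with Wars on either of its x probe sets and 8 by the ratio of mean intensities, where Aars and Aars2 change order.

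The scaffold proteins fell with the enzymes they hold. Aimp1 read 3778, 3065 and 3146 in Mac1- cells, 2495, 2626 and 2824 in Mac1+ cells, and 480, 758 and 962 in neutrophils. Aimp2 read 3315, 2435 and 2550, then 2154, 2753 and 2673, and then 450, 487 and 457. Neutrophil arrays were below all others for both, the myeloblast groups did not overlap for Aimp1, and they overlapped for Aimp2. From Mac1- cells to neutrophils Aimp1 fell by 2.21 ± 0.24 and Aimp2 by 2.52 ± 0.17 (limma adjusted p = 4.2e-05 and 1.74e-06). Eef1e1, the third scaffold protein of the complex and not one of the 38 genes, read between 2700 and 2743 in Mac1- cells and 30, 42 and 69 in neutrophils, and fell by 5.49 ± 0.22 (limma adjusted p = 8.78e-08). All 10 measured genes of the complex fell between those groups, with a median of -2.39 and a range from -5.49 for Eef1e1 to -0.58 for Lars. Among all genes 30.0% were called lower there.

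Between Mac1- and Mac1+ myeloblasts the differences were small. Of 37 members 3, all mitochondrial, were called lower and 0 higher, where 5.51% of all genes were called lower and 6.31% higher. At an unadjusted limma p under 0.05, 8 members were lower and 0 higher, where 10.4% of all genes were lower and 11.3% higher. The members' median was -0.32 log2 units against -0.01 over all genes, 33 of 37 were below 0, and 22 of 37 had all Mac1+ arrays below all Mac1- arrays, as did 20.1% of all genes. The differences ran from -0.68 for Yars to 0.18 for Vars2.

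Lars2 read 949, 852 and 873 in Mac1- cells and 500, 529 and 629 in Mac1+ cells, and 73, 66 and 76 in neutrophils. It fell by 0.68 ± 0.14 between the myeloblast groups (limma adjusted p = 0.0141), and with the mean of its 3 probe sets, of which the other 2 are dim, the difference was -0.22 (adjusted p = 0.501). Pars2 read 518, 525 and 499, then 279, 364 and 353, and then 29, 39 and 34, and fell by 0.62 ± 0.15 (limma adjusted p = 0.0307). Wars2 read 258, 261 and 238, then 183, 161 and 174, and then 43, 55 and 50, and fell by 0.51 ± 0.14 (limma adjusted p = 0.0434). The groups did not overlap for any of the 3, and on the chosen probe sets these enzymes fell again to neutrophils by 2.69, 2.80 and 1.54. The other probe set of Wars2 averaged 95.3 in Mac1+ cells and 81.5 in neutrophils. In a fit of every probe set it differed by -0.23 between them and was not called (limma adjusted p = 0.483).

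Yars had as large a difference, -0.68 ± 0.20, but missed the threshold (limma adjusted p = 0.0619), as did Fars2 at -0.60 ± 0.17 (adjusted p = 0.0526) and Iars at -0.45 ± 0.13 (adjusted p = 0.0617). In a fit of every probe set the second one of Iars was called (-0.55, limma adjusted p = 0.045). After quantile normalization the cytosolic Iars and Farsb were called (limma adjusted p = 0.0231 and 0.0228), and Pars2 and Wars2 were not (0.071 and 0.199). Only Vars, Aars, Cars and Vars2 had positive differences, between 0.07 and 0.18, none called, and with centred arrays Lars, Nars, Qars, Wars, Cars2, Sars2 and Aimp2 also lay above 0 while after quantile normalization Vars lay at -0.04. The count of 3 turned with single choices. Without Mac1- array 1, 2 or 3 or Mac1+ array 1 or 2 it was 0, without Mac1+ array 3 it was 1, and without neutrophil array 1 it was 11. The calls over all genes moved too, from 2151 to between 1317 and 1475 without a myeloblast array and to 4178 without neutrophil array 1. Centring each array moved the median over all genes to 0.17, and the count was then 0, and the members' median was -0.14. The monocyte and macrophage markers, whose sum was between 38584 and 41437 in Mac1- cells and at most 4735 in Mac1+ cells, moved with this comparison, and their part in it was not tested.

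**Figure D4:**
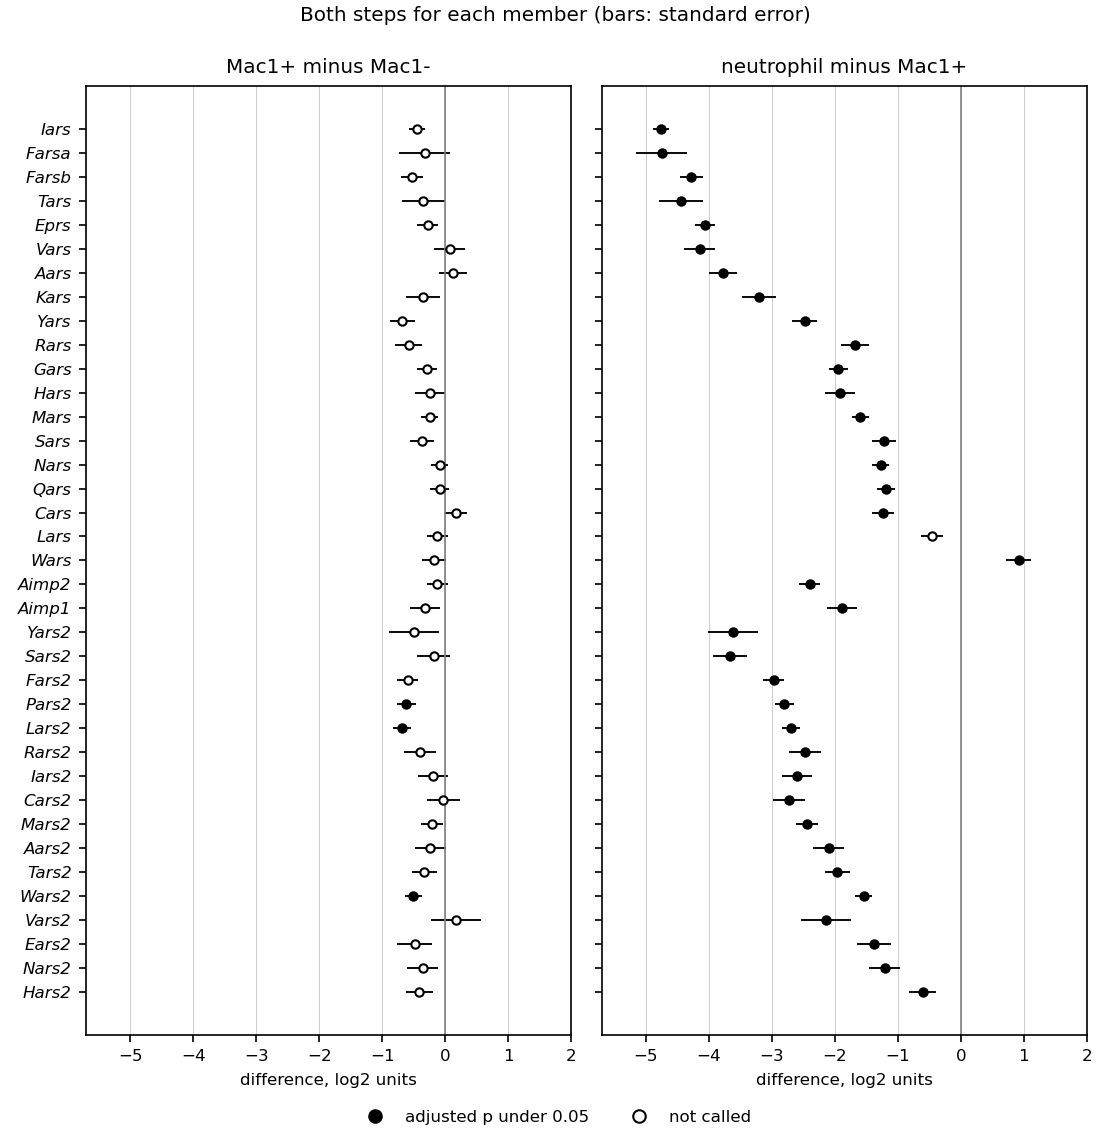
Difference of each member (log2 units, bars are standard errors) between Mac1+ and Mac1- myeloblasts on the left and between neutrophils and Mac1+ myeloblasts on the right, in the same order of genes. Filled points have a limma adjusted p under 0.05: 3 on the left and 36 on the right, of which Wars alone lies above 0.

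From Mac1+ myeloblasts to neutrophils 35 of 37 members fell, 1 was called higher (Wars, on its brightest probe set) and 1 was not called (Lars). Of all genes 28.4% were called lower and 19.7% higher. The members' median was -2.40 against Mac1+ cells, where that of all genes was 0.05, and 21 of 37 were lower by over 2 log2 units, as were 12.4% of all genes. The 2 comparisons share the neutrophil arrays. Among the 10916 genes left without the dimmest 40%, 35 of 36 members left were called lower against Mac1- cells, as were 46.9% of those genes. Without neutrophil array 1 the members called lower were still 35 and 36, with medians of -2.33 and -2.48. Centring each array on its median moved the median of all genes to 0.33 and 0.51 and the share of higher calls among all called genes from 41.0% to 59.0% and from 42.9% to 65.8% (from 53.4% to 70.8% between the myeloblast groups), and 34 members were then called lower against either. The sums of the monocyte and macrophage, stem and progenitor, and primary granule markers given above and the actin 3′ to 5′ ratio also differed between these groups, and their part in these results was not tested.

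The annotation gave 75 probe sets to the members, and 24 members had more than 1. Of the 38 probe sets not chosen, 21 were called in the direction of the chosen one between neutrophils and Mac1- cells, 13 were not called, and 4 were called in the opposite direction. These 4 were the 3 of Wars and 1 of Ears2, which read between 3 and 26 on every array. Among the 24 other probe sets with a mean of at least 100 in some group, 21 were called lower, 0 higher and 3 were not called, in a fit of every probe set. A probe set could pass this limit through the myeloblast groups alone, as the other one of Fars2 did (454.5 in Mac1- cells, 37.3 in neutrophils). This count is therefore not independent of the difference, and the share over all probe sets above the limit was not computed. Farsa has a probe set that was dimmer than the chosen one by its mean over all arrays (148.0 against 1036.4). In neutrophils it was brighter (299.6 against 42.2), and in Mac1- cells it averaged 54.8. Its difference between these groups was not called (1.61, limma adjusted p = 0.0885).

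Genes that work beside the synthetases were compared in the same way between neutrophils and Mac1- cells, where 30.0% of all genes were called lower and 22.6% higher. Each gene of these and the following lists was read from its brightest probe set over all arrays. Their other probe sets were not compared, so a choice made through the neutrophil arrays, as for Wars, was not checked. Of 12 measured factors that edit, amidate or otherwise complete charging, 10 fell, 0 rose and 2 were not called, with a median of -3.19. Beside Eef1e1, which is counted here too, falls on the offset scale were those of Qrsl1, a subunit of the mitochondrial amidotransferase that makes glutaminyl-tRNA, at -4.37 ± 0.44, and Pstk, a kinase of the selenocysteine route, at -4.04 ± 0.29 (limma adjusted p = 2.41e-05 and 2.9e-06). Of 40 measured genes of tRNA processing and modification 34 fell, 1 rose and 5 were not called, with a median of -2.59. Pus1, a pseudouridine synthase, read between 1661 and 1844 in Mac1- cells and between 28 and 49 in neutrophils and fell by 5.06 ± 0.20 (limma adjusted p = 8.14e-08). Trmt1, a tRNA guanine methyltransferase, and Nsun2, a cytosine methyltransferase, fell by 4.94 and 4.92. Elac1, an enzyme that trims tRNA 3′ ends, went the other way: it read between 327 and 356 in Mac1- cells, between 223 and 249 in Mac1+ cells and between 736 and 941 in neutrophils, and rose by 1.29 ± 0.14 (limma adjusted p = 5.35e-05). Between the myeloblast groups 7 of these 40 were called lower and 0 higher, where 5.51% of all genes were called lower and 6.31% higher.

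RNA polymerase III transcribes tRNA genes. Of 18 measured genes of this polymerase and its factors, 11 fell, 1 rose and 6 were not called, with a median of -1.08. Again, 30.0% of all genes were called lower in this comparison and 22.6% higher. Polr3e, a polymerase subunit, fell by 5.22 ± 0.27 and Gtf3c5, a subunit of TFIIIC, by 3.43 ± 0.20 (limma adjusted p = 3.53e-07 and 7.83e-07). Maf1, the repressor of this polymerase, was the gene that rose, from between 3011 and 3577 in Mac1- cells to between 4958 and 6790 in neutrophils, by 0.77 ± 0.16 (limma adjusted p = 0.00314). All 8 measured cytosolic elongation and termination factors fell, with a median of -1.33, led by the termination factor Gspt1 at -3.67 ± 0.43 and the exchange factor Eef1d at -3.24 ± 0.13 (limma adjusted p = 6.87e-05 and 8.76e-08). Of 8 measured mitochondrial translation factors 6 fell, 1 rose and 1 was not called, with a median of -2.10. The recycling factor Mrrf differed by -3.18 ± 0.26, and the initiation factor Mtif3, which rose, by 0.59 ± 0.19 (limma adjusted p = 6.17e-06 and 0.0283).

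The amino acid response list moved in both directions. Of 23 measured genes 11 fell, 8 rose and 4 were not called, with a median of -0.02, beside 30.0% lower and 22.6% higher among all genes. Psat1, an enzyme of serine synthesis, read between 6790 and 7260 in Mac1- cells, between 3384 and 4468 in Mac1+ cells and between 77 and 102 in neutrophils and fell by 6.00 ± 0.16 (limma adjusted p = 1.97e-08). Slc7a5, a transporter of large neutral amino acids, and Slc7a1, a transporter of basic amino acids, fell by 5.68 ± 0.20 and 5.14 ± 0.19 (limma adjusted p = 5.46e-08 and 6.44e-08). Psat1, Slc7a5 and Slc7a1 were also lower in Mac1+ than in Mac1- cells, by 0.86, 1.54 and 0.79 (limma adjusted p = 0.00854, 0.00119 and 0.029). Sesn2, a leucine sensor upstream of mTORC1, rose from between 62 and 86 to between 1420 and 3104, by 4.57 ± 0.37, and Chac1, which degrades glutathione, rose by 3.60 ± 0.21 (limma adjusted p = 5.91e-06 and 6.91e-07). Atf4, singled out after its values were seen, read 3998, 4099 and 3984 in Mac1- cells, 4444, 4495 and 4536 in Mac1+ cells, and 5941, 3404 and 3086 in neutrophils, and its difference was -0.02 ± 0.23 (limma adjusted p = 0.948), with neutrophil array 1 far above the other 2. Its transcript level does not report its protein, which is controlled by translation.

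The Myc family list held 7 measured genes, of which 1 fell, 4 rose and 2 were not called between neutrophils and Mac1- cells. Their median was 1.09, and among all genes 30.0% were called lower and 22.6% higher. Myc, which binds E-boxes with Max, read 3705, 3394 and 3209 in Mac1- cells, 1521, 2148 and 2449 in Mac1+ cells, and 96, 50 and 56 in neutrophils, and fell by 5.41 ± 0.24 (limma adjusted p = 1.6e-07). Mxd1, which pairs with Max in place of Myc, rose by 4.76 ± 0.15 and Max by 2.60 ± 0.25 (limma adjusted p = 3.02e-08 and 1.92e-05). Beside these values, the members printed with a response element differed by -5.21 (Iars), -4.79 (Tars), -3.64 (Aars), -3.16 (Yars) and -2.23 (Gars), and Farsb and Ears2, which hold only the E-box, by -4.80 and -1.86. Members whose promoters held neither motif differed by between -5.07 for Farsa and -1.27 for Qars. These are descriptions of few genes, and no test links the letters to the levels.

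**Figure D5:**
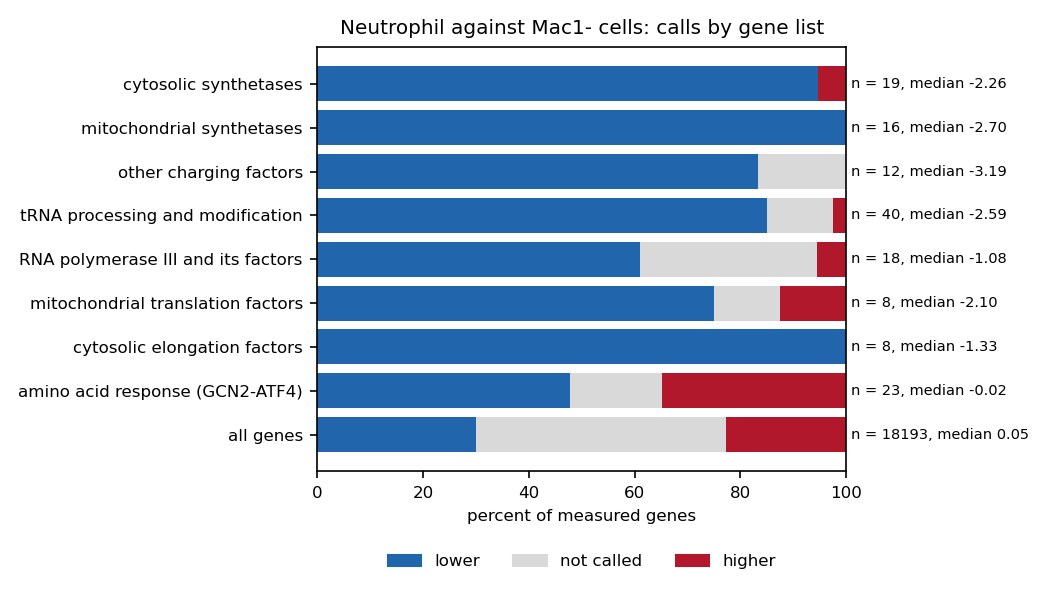
Percent of the measured genes of each list called lower (blue), not called (grey) or higher (red) in neutrophils against Mac1- cells at a limma adjusted p under 0.05, with the number measured and the median difference in log2 units beside each bar. All 16 mitochondrial synthetases and 18 of 19 cytosolic synthetases are lower, the remaining one being Wars on its brightest probe set, where 30.0% of all 18193 genes are lower and 22.6% higher.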

How the data were processed

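The authors deposited 1 table of linear intensity values for 45101 probe sets on 9 arrays. Per the labels' protocols, polyA RNA was column-purified and amplified in a two-cycle protocol, which favours 3′ ends. The summary method and scaling of these intensities are not given in the sources used here. From the values as deposited, log2(intensity + 16) was taken. For each gene named alone by the platform annotation (34945 probe sets; 932 named several genes) the probe set with the highest mean log2 value was kept. limma 3.58.1 in R 4.3.3 fitted 3 group means over all 9 arrays, with Benjamini-Hochberg adjustment over 18193 genes, and was tested on simulated data. Every member is accounted for. Values of every array are given for the 6 largest falls and up to 4 rises per comparison, members called between the myeloblast groups, the 3 smallest differences, and both scaffolds. For other lists, up to 3 called genes with the largest differences and up to 2 opposite ones are named. The members and lists were chosen with earlier results of these data known. Alternatives covered scaling, offset, dim genes, probe set choice, variance model and each array left out.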

Additional observations from a re-analysis of the deposited data

How the results depend on the processing

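Between Mac1+ and Mac1- cells the count of 3 members called lower was 0 with centred arrays and with a required change of at least 2-fold, 1 with an offset of 1, 7 with an offset of 64, 6 without dim genes, 13 in a fit of only the 2 groups and 13 with array weights, and between 0 and 11 with 1 array left out. All genes called there were 2151, and 4509 in the 2-group fit, 5760 with array weights, 378 at 2-fold, and between 1317 and 4178 with 1 array left out. Against a 2-fold change, 3685 genes in place of 8754 were called between neutrophils and Mac1+ cells and 4509 in place of 9570 between neutrophils and Mac1- cells, and the members called higher in these comparisons went from 1 to 0, as they did with probe sets averaged per gene, where Wars was -1.09 and -1.37. In the other alternatives run, the members called lower stayed between 34 and 36 (28 and 29 at 2-fold).

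Small uncalled differences between the myeloblast groups changed sign. With centred arrays these were Lars at 0.063, Nars at 0.096, Qars at 0.098, Wars at 0.0026, Cars2 at 0.16, Sars2 at 0.0033 and Aimp2 at 0.060. Vars was -0.038 after quantile normalization. Cars2 was 0.060 with the mean of probe sets and 0.015 with array weights. With 1 array left out in turn, Vars ranged from -0.0064 to 0.14, Cars2 from -0.11 to 0.068, Sars2 from -0.37 to 0.039 and Aimp2 from -0.21 to 0.012. Choosing the brightest probe set by linear intensity, tried after the data were seen, changed that of 1 member, Farsb, whose difference between the myeloblast groups became -0.61 (limma adjusted p = 0.0386).

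The labels number the replicates of each group from 1 to 3. Deviations of same-numbered arrays correlated between -0.307 and 0.132, so the numbers were not taken to pair the samples. With the replicate number as a block, 1 member was called lower between the myeloblast groups, 34 between neutrophils and Mac1+ cells and 36 between neutrophils and Mac1- cells, and all genes called were 1663, 8470 and 9269. The cause of these changes was not tested. The limits are 3 arrays a group, unstated processing, and dim signals in neutrophils.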
